A study of Homo sapiens with 20 samples.

Results

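H1792 is an established human lung cancer cell line, and its mRNA was measured once after a mock treatment and once after decitabine (DAC). The members described here are the genes whose expression reached 1 FPKM (fragments per kilobase of gene per fixed number of fragments sequenced) in either of these 2 libraries. They numbered 13323 of the 36076 genes in the expression table. For each gene the log2 ratio was taken as log2((DAC FPKM + 0.1)/(Mock FPKM + 0.1)), so that a value of 1 is a doubling on this scale, and the 0.1 pulls the ratios of low genes toward 0.

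The study asked how DAC reshapes gene expression and chromatin in lung cancer cells, and sequenced mRNA from 6 lines, A549, CL1-0, CL1-5, PC9, H1299 and H1792, with 1 Mock and 1 DAC library a line. The paper's own mRNA-seq comparison names the other lines and not H1792. The DAC-treated cells received 100 nM of the drug for 72 hours and then grew for 3 days without it. The labels describe the Mock cells as PBS-treated, and all cells were cultured in RPMI-1640 medium with fetal bovine serum. The labels name no engineered allele in H1792, and the line has no Omni-ATAC-seq library here.

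Each H1792 treatment is a single library, so no difference between DAC and Mock in this line has a replicate check and none carries a p-value. The ratios of the other 5 lines are given as the spread. Each ratio is a bulk value, in which fewer cells of one kind cannot be told apart from less RNA per cell.

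Decitabine is a deoxycytidine analog that cells phosphorylate and build into new DNA, where it traps the maintenance DNA methyltransferase DNMT1. CpG methylation is then diluted as cells divide. Genes silenced by promoter methylation, such as germline genes on the X chromosome, are known to be re-expressed in cancer cells after the drug, and interferon responses and slowed growth have also been described.

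The 2 libraries held epithelial keratins and several fibroblast markers, with leukocyte markers near 0. Of 9 epithelial markers, 7 passed 1 FPKM, led by KRT7 (FPKM 137 in Mock and 166 in DAC) and KRT19 (FPKM 75.1 in Mock and 83.8 in DAC), simple epithelial keratins. EPCAM stood at an FPKM of 4.32 in Mock and 3.77 in DAC, and the lung lineage factor NKX2-1 had 0 reads in both libraries. None of 12 leukocyte markers passed, and CD3E, CD3D, CD2 and MS4A1 were at 0. Of 9 fibroblast markers, 7 passed, with a summed FPKM of 104 in Mock and 157 in DAC. COL1A1, a fibrillar collagen chain, was at an FPKM of 68.6 in Mock and 74.9 in DAC, whereas THY1 and FAP stayed under 1. CDH5 and KDR were the 2 of 7 endothelial markers that passed.

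The H1792 libraries held 24176340 reads in Mock and 23837056 in DAC, close to the 22234485 to 25303899 of the other lines except H1299, whose 2 libraries held 59735913 and 52634234. In those H1299 libraries 81.9 to 85.5% of low read numbers were even, against 39.2 to 41.5% elsewhere, so the H1299 totals are not set beside the others as a depth. Counting intervals given below cover counting error only.

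Across the 13323 genes, 1129 (8.47%) were at least 2-fold higher in the DAC library and 675 (5.07%) at least 2-fold lower. The median log2 ratio was 0.01, the quartiles were -0.38 and 0.40, and 6769 genes (50.8%) lay above 0. Genes that pass through 1 column only had to differ, and among the 11700 genes at 1 FPKM or more in both columns 478 (4.09%) were at least 2-fold higher and 383 (3.27%) at least 2-fold lower. The larger differences leaned upward, with 450 genes at least 4-fold higher and 116 at least 4-fold lower. Long noncoding RNAs passing the rule had a higher median than protein-coding genes. Of 944 of them, 219 were at least 2-fold higher and 48 at least 2-fold lower, with a median of 0.36. The counts were 697 and 414 of 11283 protein-coding genes, with a median of -0.01. Long noncoding RNAs were not counted apart at 1 FPKM in both columns or by gene length, and the part of either in this difference was not tested.

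Scaling matters for the balance of these counts. On a TPM scale, where each library sums to the same total, the median ratio shifted by -0.17, and 947 genes were at least 2-fold higher and 1095 lower, so that 46.4% of the genes past the limit were higher in place of 62.6%. Quantile normalization gave 1053 and 828. Summed FPKM also differed within other lines, with log2 ratios of DAC to Mock from -0.35 (A549) to 0.12 (CL1-5), beside 0.17 in H1792. List medians of the other lines below were computed on the FPKM scale only.

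**Figure D1:**
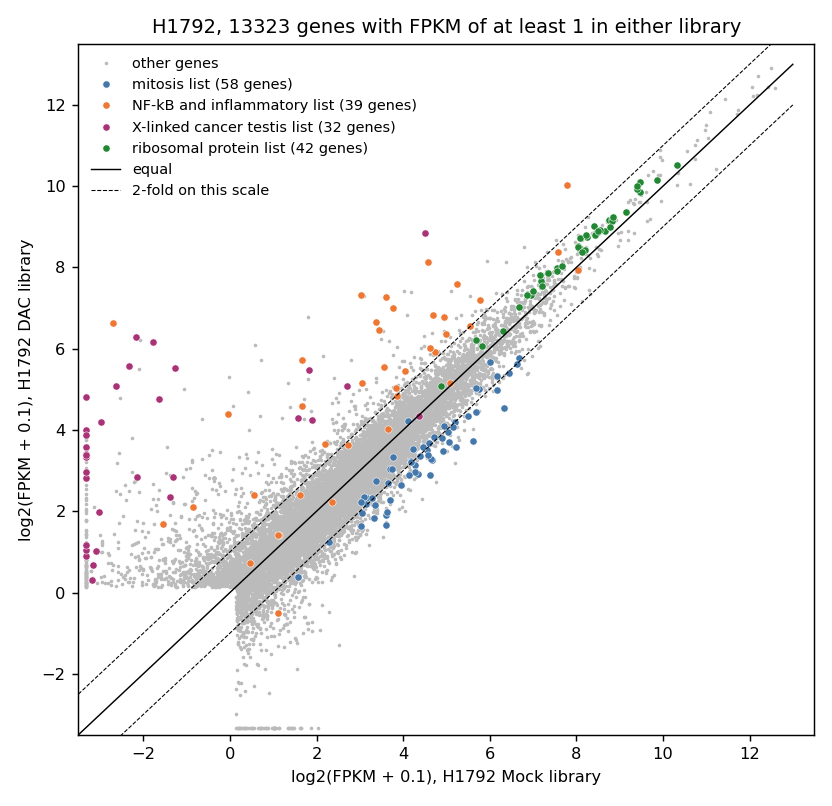
Expression of the 13323 H1792 genes in the Mock library (x axis) and the DAC library (y axis), both as log2(FPKM + 0.1), 1 point a gene. The solid line marks equal values and the dashed lines a 2-fold difference. Of the X-linked cancer testis genes 31 of 32 and of the NF-kB and inflammatory genes 27 of 39 lie on or above the upper line, 34 of the 58 mitosis genes lie on or below the lower line, and the 42 ribosomal protein genes lie just above the line of equality.

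The only test these data allow compares the single H1792 ratio of a gene with the ratios of the other 5 lines. It used limma and assumes that the lone H1792 ratio varies like the others. Of 18098 genes tested, 0 were called higher and 0 lower at an adjusted p of 0.05, so nothing below is shown to be particular to H1792. Unadjusted p was under 0.05 for 971 genes above and 908 below the other lines, and the lowest adjusted p was 0.136. The same test on recovered reads (voom) also called 0 genes in each direction, with 900 and 885 genes at an unadjusted p under 0.05. The counts depended on how low values were weighted and on single lines. With a pseudocount of 1 in place of 0.1 limma called 38 genes higher and 7 lower, IL1B, CSF2 and CSF3 among the higher, and without H1299 it called 8 and 5, without A549 2 and 0, and without PC9 1 and 0. The genes nearest to a call included DUOXA2, the maturation factor of a hydrogen peroxide-generating oxidase, at an FPKM of 0.0631 in Mock and 9.04 in DAC. LCN2, an iron-scavenging acute phase protein, stood at an FPKM of 0.378 in Mock and 31.9 in DAC. Both were chosen for their place in this order, after their values were seen. As a plain description, 25% of the 13323 genes had an H1792 ratio above that of each other line and 25.4% below, and gene groups are read against these shares. Levels below are FPKM, and the median of a gene list is the median log2 ratio of its members that passed the expression rule. Counts of list members at least 2-fold higher or lower stand against the 8.47% and 5.07% of all genes.

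A trend with gene length ran through the H1792 ratios. In the shortest decile of the genes (33 to 1023 bases) the median ratio was 0.37, with 27.1% of genes at least 2-fold higher, and it went down steadily to -0.34 in the longest decile (9765 to 91737 bases), with 1.35% higher. A549 ran the other way over the same genes, from -0.53 in the second decile to 0.42 in the longest. CL1-0 and PC9 did so to a smaller extent, from -0.16 and -0.05 in the second decile to 0.09 and 0.05 in the longest. Values centred on the median of the same decile are therefore given beside each printed group median that they moved by over 1.5 times, and beside some others. This centring was chosen after seeing the data, left 998 genes at least 2-fold higher and 717 lower, and the part of length in any group's difference was not tested.

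**Figure D2:**
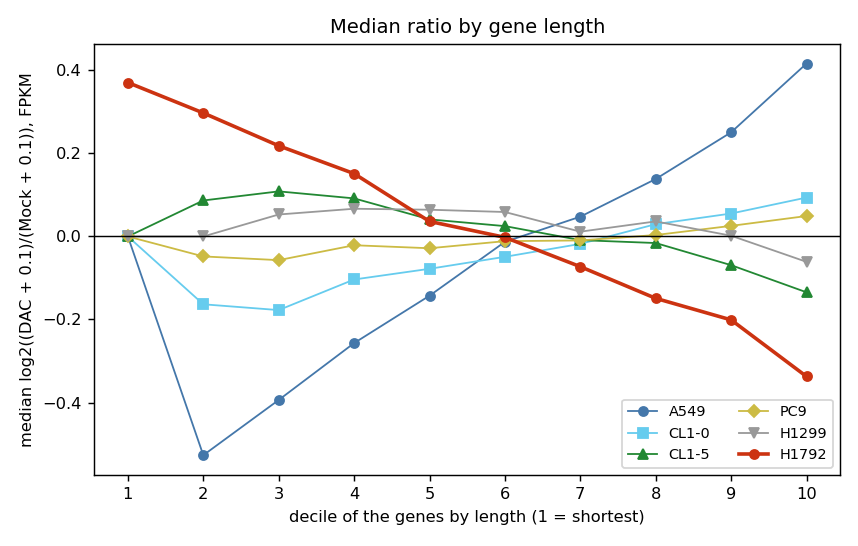
Median log2 ratio of DAC to Mock FPKM (y axis) in deciles of the 13323 H1792 genes ordered by length (x axis, 1 the shortest), with 1 line a cell line. The H1792 medians go from 0.37 in the shortest decile to -0.34 in the longest, and those of A549 run in the opposite direction from the second decile on. Medians of exactly 0 in the first decile of other lines come from genes that those lines hardly express.

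The highest ratios in H1792 belonged to a cytokine, germline genes and a blood-cell integrin regulator. CSF3, the granulocyte colony-stimulating factor, stood at an FPKM of 0.0545 in Mock and 99 in DAC (3 and 5275 reads), a ratio of 1818-fold (95% counting interval 622 to 8816). FERMT3, kindlin-3, which activates integrins in blood cells, was at an FPKM of 0.131 in Mock and 45.3 in DAC (10 and 3333 reads), log2 ratio 7.62, beside 1.48 to 4.87 in the other lines. PAGE5 and MAGEA4, X-linked cancer testis genes, had 0 reads in Mock and 496 and 1179 in DAC, FPKM 27.8 and 15.9. Against a floor of 3 reads they were at least 171-fold and at least 406-fold higher. The rest of the 10 highest were PAGE2 and copies of the VCX family, whose near-identical sequences make the split of reads among them uncertain. Among them VCX3A was at an FPKM of 0.122 in Mock and 78.1 in DAC.

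The promoters of PAGE5, FERMT3 and MAGEA4, which went from at most 10 reads in Mock to at least 496 in DAC, are shown because decitabine acts on CpG methylation. They are RefSeq windows of 300 bases on the GRCh38.p14 build, from 250 bases before to 50 after the annotated start, written 5′ to 3′ on the gene's strand, with each CpG in capitals. PAGE5 lies at chrX:55220096-55220395, FERMT3 at chr11:64206471-64206770 and MAGEA4 at chrX:151912224-151912523, all on the plus strand.
PAGE5: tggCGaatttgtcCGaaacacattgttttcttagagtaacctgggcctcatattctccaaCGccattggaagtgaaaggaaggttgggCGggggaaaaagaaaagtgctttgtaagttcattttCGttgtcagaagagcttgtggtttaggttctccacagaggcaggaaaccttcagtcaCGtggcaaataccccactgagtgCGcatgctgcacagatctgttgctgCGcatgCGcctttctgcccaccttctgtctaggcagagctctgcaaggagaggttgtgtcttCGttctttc
FERMT3: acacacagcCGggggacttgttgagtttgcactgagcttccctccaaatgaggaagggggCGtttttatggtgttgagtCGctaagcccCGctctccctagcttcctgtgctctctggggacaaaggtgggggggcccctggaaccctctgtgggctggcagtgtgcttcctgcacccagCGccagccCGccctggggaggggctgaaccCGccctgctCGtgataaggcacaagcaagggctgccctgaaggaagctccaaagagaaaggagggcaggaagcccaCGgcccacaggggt
MAGEA4: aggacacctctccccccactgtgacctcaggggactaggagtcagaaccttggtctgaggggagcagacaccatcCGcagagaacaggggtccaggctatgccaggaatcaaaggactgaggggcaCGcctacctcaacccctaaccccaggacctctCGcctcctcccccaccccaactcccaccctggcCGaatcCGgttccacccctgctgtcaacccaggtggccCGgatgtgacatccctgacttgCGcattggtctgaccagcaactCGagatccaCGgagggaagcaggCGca
The windows hold 10, 9 and 10 CpGs, and the median over all 27305 RefSeq windows was 14. Of the protein-coding genes passing the expression rule that have a symbol, each symbol counted once, 9249 of 11236 (82.3%) had a RefSeq window, with a median of 27 CpGs. Methylation was not measured in these files, so the sequences show where CpGs lie and nothing of their state.

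The lowest ratios were led by TERT, the catalytic subunit of telomerase, at an FPKM of 1.78 in Mock and 0.0812 in DAC (204 and 9 reads), log2 ratio -3.38, beside -1.98 to 0.43 in the other lines. IQGAP3, a scaffold protein of proliferating cells, was at an FPKM of 27.2 in Mock and 6.49 in DAC, and its ratio of -2.05 lay below the -0.34 to 0.20 of the other lines. MYB, a transcription factor of progenitor cells, was at an FPKM of 1.14 in Mock and 0.197 in DAC. SERPINB4, a protease inhibitor of squamous epithelium, stood at an FPKM of 9.17 in Mock and 2.13 in DAC, although reads may be shared with the near-identical SERPINB3. PLXNA4, a semaphorin receptor, was at an FPKM of 1.69 in Mock and 0.277 in DAC, a ratio of -2.24 where the other lines lay at 0.11 to 0.51. The remaining 5 of the 10 lowest, with log2 ratios in brackets, were ANKRD22 (-2.61), ZBED6 (-2.60), CAMKV (-2.33), RASL11A (-2.11) and KLHL11 (-2.08). ZBED6 lies inside another gene, so its reads may be shared.

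Most genes of the DNA methylation machinery lay below 0 in H1792 without reaching 2-fold. Of 9 members, 7 passed the expression rule, 0 were at least 2-fold higher and 0 at least 2-fold lower. The median was -0.62, below the -0.26 to 0.69 of the other lines, and -0.28 after length centring, which left 2 of 7 above 0. All 7 uncentred ratios lay below those of the 5 other lines. The list's median length of 9803 bases is in the longest decile. In that decile the median ratio was -0.34 in H1792 and -0.13 to 0.42 in the other lines. Only H1792 was length centred, so the order of the lines after centring was not computed. DNMT1, the maintenance methyltransferase that DAC traps, was at an FPKM of 17.4 in Mock and 11.3 in DAC, log2 ratio -0.62 beside -0.26 to 0.44 elsewhere. UHRF1, which brings DNMT1 to newly replicated DNA, was at an FPKM of 14.4 in Mock and 7.19 in DAC (log2 ratio -0.99), just inside the 2-fold limit. The de novo methyltransferases differed less, with DNMT3A at an FPKM of 2.02 in Mock and 1.6 in DAC and DNMT3B at an FPKM of 6.19 in Mock and 7.2 in DAC. DNMT3B was the member above 0, while in the other lines its ratio was 0.47 to 1.35. TET3 and TET2, dioxygenases that oxidize methylcytosine, had log2 ratios of -0.96 and -0.76.

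Genes for uptake and metabolism of the drug diverged. Of 8 members passing the rule, CDA alone was at least 2-fold different. CDA, the cytidine deaminase that inactivates decitabine, was at an FPKM of 5.53 in Mock and 25.7 in DAC (log2 ratio 2.2, other lines 0.06 to 4.22). DCK, the kinase that starts its activation, stood at an FPKM of 9.28 in Mock and 4.97 in DAC (log2 ratio -0.89), below the -0.25 to 0.17 of the other lines. SLC29A1, a nucleoside transporter, was at an FPKM of 22 in Mock and 12.8 in DAC.

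Germline genes made up much of the upper end. The X-linked cancer testis list, antigens normally made in testis and often silenced by methylation elsewhere, had 58 members, of which 51 were matched in the table and 32 reached 1 FPKM in H1792. Of the 32, 31 were at least 2-fold higher, but 26 of them passed through the DAC column only and so had to differ. Among the 6 at 1 FPKM or more in both columns 5 were at least 2-fold higher, with a median of 2.54. Summed over the list, FPKM was 61.3 in Mock and 1073 in DAC. The median of 5.58 lay between the 0.10 of CL1-0 and the 5.85 of A549, and was 5.28 after length centring.

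Ratios of the genes that passed through DAC only rest on the DAC level and the 0.1 added, so the sizes given for families are not a comparison between them. The 12 MAGE genes that passed had a median of 3.78, with 11 at least 2-fold higher, and the other 20 genes a median of 6.72, with all 20 at least 2-fold higher. SPANXB1, a sperm nuclear protein gene, was the most abundant, at an FPKM of 22.5 in Mock and 463 in DAC. CTAG2, SSX1 and XAGE1B each had 0 FPKM in Mock and 11.9, 10.5 and 14.6 in DAC. Copies of CTAG, SSX, SPANX, XAGE, PAGE and MAGEA3 with MAGEA6 share sequence, so their single values are uncertain. MAGEA10 was the exception, already at an FPKM of 20.6 in Mock and at 20.1 in DAC (log2 ratio -0.04), while its ratio was 4.58 in A549 and 1.93 in PC9.

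The promoter windows of the X-linked genes held fewer CpGs than those of protein-coding genes passing the rule. Of the 32 genes 28 (87.5%) had a window, with a median of 12 CpGs, and 64.3% held 10 or more. For protein-coding genes passing the rule the median was 27, and 90.5% held 10 or more. Over all RefSeq windows the median was 14, and 56.0% held 10 or more, so the difference depends on the windows compared. The CCAAT box (CCAAT, either strand) was in 57.1% of them and in 35.7% of all 27305 RefSeq windows.

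Autosomal germline genes mostly stayed silent, with 6 of 44 reaching 1 FPKM, 2 of them in both columns. DAZL, an RNA-binding protein of germ cells, had 0 reads in Mock and 388 in DAC, at least 134-fold higher at an FPKM of 4.45. PRAME, a widely expressed tumour antigen, was at an FPKM of 13.2 in Mock and 27.7 in DAC. REC8, a meiotic cohesin subunit, stood at nearly the same level in both libraries, an FPKM of 6.19 in Mock and 6.21 in DAC.

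Inflammatory and NF-kB genes were higher as a group, most of them already expressed in Mock. NF-kB transcription factors are held in the cytoplasm by IkB proteins and, once released, drive cytokines, chemokines and their own feedback inhibitors. Of 47 list members 39 passed, 27 (69.2%) were at least 2-fold higher and 1 at least 2-fold lower, beside 8.47% and 5.07% of all genes. Among the 34 at 1 FPKM or more in both columns 23 were at least 2-fold higher and 0 lower, beside 4.09% and 3.27%. The median was 1.47 (1.48 after length centring), above the 0.02 to 0.67 of the other lines, and 24 of the 39 ratios lay above those of all 5 lines. Summed FPKM was 1179 in Mock and 3886 in DAC. The limma comparison with the other lines called none of them.

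Cytokines had the highest ratios, with 10 of 11 at least 2-fold higher and a median of 3.24. After CSF3 came IL32 (FPKM 0.867 in Mock and 20.9 in DAC) and CSF2, the granulocyte-macrophage factor (FPKM 8.04 in Mock and 161 in DAC). The interleukin-1 genes IL1A and IL1B were at an FPKM of 3.09 in Mock and 52.6 in DAC for IL1A, and at 12 in Mock and 154 in DAC for IL1B. IL6, an acute phase cytokine, stood at an FPKM of 13.4 in Mock and 128 in DAC. IL1B was near 0 in A549, CL1-0, CL1-5 and H1299 (0.00 to 0.15) and at 2.96 in PC9. Of the genes in this paragraph CSF3 and IL1B were picked by rule, and the others after their values were seen.

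Among 12 chemokines 8 were at least 2-fold higher, with a median of 1.91. CXCL8, the neutrophil attractant also known as interleukin-8, was the most abundant in DAC, at an FPKM of 222 in Mock and 1039.8 in DAC (12525 and 56747 reads). Its ratio of 2.23 lay inside the -0.68 to 3.40 of the other lines, where PC9 was highest. CXCL1 and CCL20, picked after their values were seen, were at an FPKM of 23.9 in Mock and 283 in DAC for CXCL1, and at 10.3 in Mock and 101.0 in DAC for CCL20. CXCL5, another neutrophil attractant, did not follow them, at an FPKM of 262 in Mock and 244 in DAC.

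Of 16 feedback and pathway genes, 9 were at least 2-fold higher, with a median of 1.09. NFKBIA, the IkB-alpha inhibitor, stood at an FPKM of 31.5 in Mock and 82 in DAC, TNFAIP3, the A20 deubiquitinase, at an FPKM of 8.24 in Mock and 35.4 in DAC, and SOD2, mitochondrial superoxide dismutase, at an FPKM of 25.8 in Mock and 114 in DAC, all 3 picked after their values were seen. REL, an NF-kB subunit itself, was the member that was lower, at an FPKM of 2.06 in Mock and 0.603 in DAC (log2 ratio -1.62), below the -0.17 to 1.56 of the other lines.

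**Figure D3:**
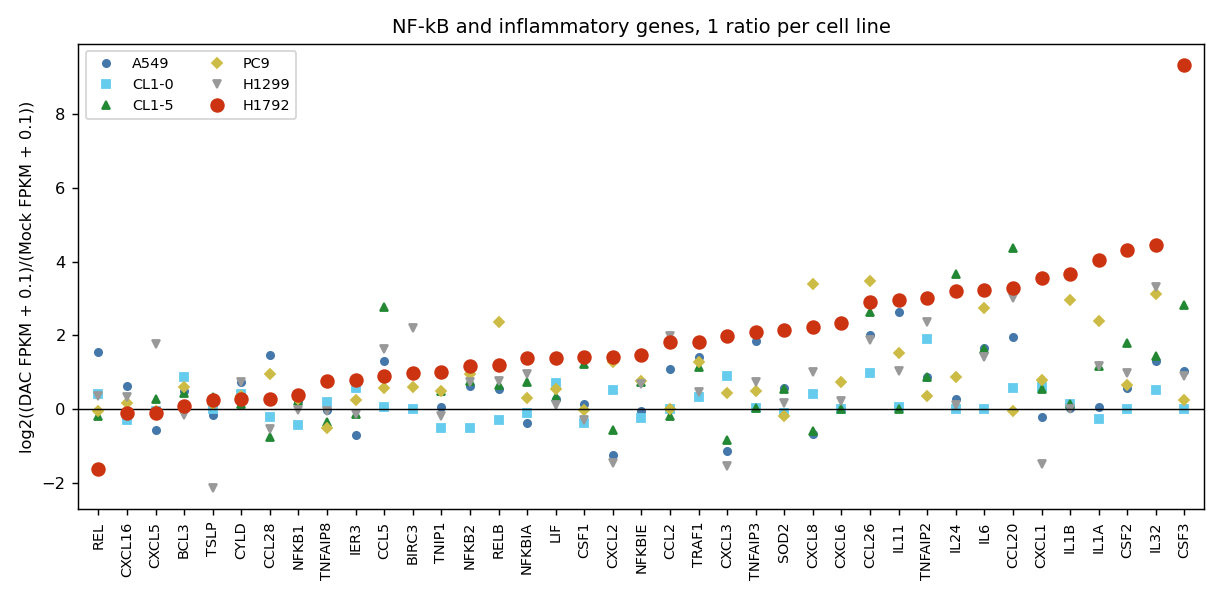
Log2 ratio of DAC to Mock FPKM (y axis) of the 39 NF-kB and inflammatory genes that passed the expression rule in H1792 (x axis, ordered by the H1792 ratio), 1 point a gene and cell line. H1792 (large points) runs from -1.62 for REL to 9.33 for CSF3, and 24 of the 39 H1792 points lie above those of all 5 other lines.

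The CXCL8 promoter window is shown because it carries a match to an NF-kB motif. It lies at chr4:73740319-73740618 on the plus strand of GRCh38.p14, with the match to GGAATTTCC in capitals.
CXCL8: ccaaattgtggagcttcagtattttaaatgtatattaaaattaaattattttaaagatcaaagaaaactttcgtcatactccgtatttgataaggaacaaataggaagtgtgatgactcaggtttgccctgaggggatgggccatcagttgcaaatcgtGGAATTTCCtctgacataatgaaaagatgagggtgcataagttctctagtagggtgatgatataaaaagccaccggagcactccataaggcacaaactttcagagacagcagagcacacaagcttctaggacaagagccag
These 9 letters, on either strand, were in 0.472% of all 27305 windows. For the list as a whole only 30 of 39 genes (76.9%) had a window, too few for a share. A match is a run of letters and not a measured binding site.

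Related innate genes were higher in part. Of 12 pyroptosis and inflammasome genes 9 passed, all above 0, beside 50.8% of all genes. Of these 3 were at least 2-fold higher, with a median of 0.58 beside 0.03 to 0.46. IL1B was one of them, and CASP1, which cleaves its precursor, stood at an FPKM of 2.02 in Mock and 5.3 in DAC. CASP4, a sensor of cytosolic lipopolysaccharide, was at an FPKM of 17.1 in Mock and 22.5 in DAC.

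The interferon-stimulated genes differed little in the middle. Of 58 members 44 passed, 8 were at least 2-fold higher (5 of the 41 at 1 FPKM in both columns) and 0 lower. The median of 0.15 stood near the lowest of the other lines, whose medians ran from 0.12 to 2.42. It was -0.01 on the TPM scale. BST2 (tetherin), which holds virus particles at the membrane, was highest, at an FPKM of 0.54 in Mock and 9.64 in DAC (log2 ratio 3.93), inside the 2.56 to 5.99 of the other lines. The abundant members were IFITM3, a restriction factor of virus entry, at an FPKM of 262 in Mock and 330.1 in DAC and LGALS3BP, a secreted glycoprotein, at an FPKM of 141 in Mock and 255 in DAC. PARP9 was lowest, at an FPKM of 3.24 in Mock and 1.74 in DAC. The antiviral sensors and effectors OAS3 and EIF2AK2 also lay below 0, with log2 ratios of -0.82 and -0.63.

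Of 9 genes known from the interferon gamma response that passed, 4 were at least 2-fold higher (3 of the 7 at 1 FPKM in both columns), with a median of 0.70 beside -0.03 to 1.09. IDO1, which degrades tryptophan and restrains T cells, stood at an FPKM of 2.44 in Mock and 35.3 in DAC (log2 ratio 3.80), above the -0.68 to 2.07 of the other lines. GBP2, a guanylate-binding protein, was at an FPKM of 12.7 in Mock and 29.9 in DAC. CIITA, the master regulator of MHC class II, was at an FPKM of 1.02 in Mock and 0.552 in DAC.

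MHC class I genes, which present peptides to CD8 T cells, mostly lay above 0. All 22 passed, and 21 lay above 0 (18 on the TPM scale), beside 50.8% of all genes. The median was 0.58, beside -0.05 to 1.19 elsewhere. Of the 22, 6 were at least 2-fold higher (27.3%, beside 8.47%). Among the 21 at 1 FPKM in both columns 5 were at least 2-fold higher, beside 4.09% of all such genes. The 7 heavy chains had a median of 1.06, 5 of them at least 2-fold higher, with reads among them uncertain because of shared sequence. HLA-B was at an FPKM of 46.3 in Mock and 158 in DAC, and B2M, their common light chain, at an FPKM of 160.0 in Mock and 334 in DAC. In the other lines the B2M ratio was -0.17 to 1.19. The processing genes had a median of 0.53, and the chaperone PDIA3 stood at an FPKM of 264 in Mock and 445 in DAC. Of 12 class II genes 3 passed, among them CD74 at an FPKM of 17.1 in Mock and 31.5 in DAC and HLA-DRA at an FPKM of 6.68 in Mock and 2.34 in DAC.

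Ligands by which T and NK cells sense tumour cells showed no common direction. Of 31 members 23 passed, 1 was at least 2-fold higher and 1 lower, with a median of 0.19 (0.08 after length centring). Among the 21 at 1 FPKM in both columns 0 were at least 2-fold higher and 1 lower. MICA and MICB, stress ligands of the NKG2D receptor, were at an FPKM of 21.7 in Mock and 19.4 in DAC for MICA, and at 4.02 in Mock and 4.29 in DAC for MICB. CD274 (PD-L1) was at an FPKM of 1.79 in Mock and 2.63 in DAC. NCR3LG1 (B7-H6), a ligand of an NK cell receptor, was the lower one, at an FPKM of 6.31 in Mock and 2.03 in DAC (log2 ratio -1.59), below the -0.27 to 1.88 of the other lines. TNFRSF14, the HVEM receptor, was the higher one, at an FPKM of 0.914 in Mock and 3.38 in DAC. PVR, bound by DNAM-1, was abundant at an FPKM of 96.2 in Mock and 71.2 in DAC.

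Adhesion molecules of the immune synapse were led by 2 integrin ligands. ICAM1, the ligand of LFA-1 on lymphocytes, was at an FPKM of 5.38 in Mock and 27.6 in DAC (log2 ratio 2.34), within the 1.91 to 4.99 of the other lines, all of which lay above 0. VCAM1, the ligand of VLA-4, had 2 reads in Mock and 608 in DAC, a ratio of 314-fold (95% counting interval 86.6 to 2601), with a log2 ratio of 5.24 above the 0.00 to 2.18 of the other lines. Of 9 members passing, 3 were at least 2-fold higher, and the median was 0.61. Over the 6 at 1 FPKM in both columns 1 was higher, and the median was 0.05. CD44, the hyaluronan receptor, stood at an FPKM of 105 in Mock and 160.0 in DAC and ALCAM at an FPKM of 27.8 in Mock and 19.3 in DAC.

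Death receptor genes lay close to the middle, with a median of 0.22 and 2 of 12 at least 2-fold higher. The TRAIL receptors TNFRSF10A and TNFRSF10B were at an FPKM of 10.1 in Mock and 8.68 in DAC for TNFRSF10A, and at 44.6 in Mock and 52.4 in DAC for TNFRSF10B. FAS stood at an FPKM of 3.89 in Mock and 3.11 in DAC. CFLAR, which blocks caspase-8 activation, and TNFRSF1B, a TNF receptor, were those at least 2-fold higher, with log2 ratios of 1.06 and 1.10.

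Mitosis genes were lower almost throughout. They encode the cyclins, kinases and spindle proteins that are made in G2 and used in division. All 58 passed in both columns, 34 (58.6%) were at least 2-fold lower and 0 higher, beside 3.27% and 4.09% of all such genes. The median was -1.06, beside -0.44 to 0.44 in the other lines, and 50 of 58 ratios lay below those of all 5 lines, beside 25.4% of all genes. It was -1.19 after length centring and -1.23 on the TPM scale. Summed FPKM was 1670.1 in Mock and 809 in DAC.

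The 3 roles within the list gave similar values. Of 14 kinases and cyclins 8 were at least 2-fold lower (median -1.06), of 30 spindle and kinetochore genes 19 (-1.10), and of 14 others 7 (-1.02). KIF14, a kinesin of the midbody, was lowest, at an FPKM of 12 in Mock and 3.08 in DAC (log2 ratio -1.93), beside -0.39 to 0.62 elsewhere. MKI67, the Ki-67 proliferation antigen, stood at an FPKM of 24.5 in Mock and 7.33 in DAC (log2 ratio -1.73), beside -0.43 to 0.48. CCNA2 and TOP2A, cyclin A2 and topoisomerase II, were at an FPKM of 48.8 in Mock and 13.2 in DAC for CCNA2, and at 79.8 in Mock and 23.2 in DAC for TOP2A, and were picked after their values were seen. CCNB1, cyclin B1, was at an FPKM of 72.3 in Mock and 39.9 in DAC (log2 ratio -0.86), where A549 lay at -0.82. PLK1, a mitotic kinase, was at an FPKM of 24.3 in Mock and 12.7 in DAC (log2 ratio -0.92). SPC25, a kinetochore subunit, was the gene above 0, at an FPKM of 17.1 in Mock and 18.5 in DAC, and lay below 0 on the TPM scale.

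Promoter windows of KIF14, the lowest of the list, and CDC20, among its most abundant, are shown because both hold the cell cycle homology region (CHR) motif TTTGAA. CDC20, which activates the anaphase-promoting complex, was at an FPKM of 99 in Mock and 49.6 in DAC. The windows lie at chr1:200620702-200621001 on the minus strand and chr1:43358731-43359030 on the plus strand of GRCh38.p14, with TTTGAA or its reverse complement TTCAAA in capitals.
KIF14: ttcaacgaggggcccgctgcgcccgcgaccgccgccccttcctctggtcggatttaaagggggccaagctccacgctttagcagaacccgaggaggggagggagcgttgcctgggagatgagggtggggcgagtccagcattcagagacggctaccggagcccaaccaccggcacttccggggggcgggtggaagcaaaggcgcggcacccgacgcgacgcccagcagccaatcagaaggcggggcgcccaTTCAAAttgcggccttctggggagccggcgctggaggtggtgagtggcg
CDC20: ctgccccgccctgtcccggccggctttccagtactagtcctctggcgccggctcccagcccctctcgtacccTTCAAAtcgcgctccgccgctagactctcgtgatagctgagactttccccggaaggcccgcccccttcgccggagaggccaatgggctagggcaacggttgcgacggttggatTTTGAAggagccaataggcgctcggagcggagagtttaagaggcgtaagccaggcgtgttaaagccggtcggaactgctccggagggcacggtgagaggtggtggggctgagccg
Of the 58 mitosis genes 48 (82.8%) had a window, and 33 of those (68.8%) held TTTGAA on either strand, beside 9.59% of all protein-coding genes passing the rule. Of the protein-coding genes with a symbol that were at least 2-fold lower, 352 of 410 had a window, and 21.6% held it. The mitosis genes at least 2-fold lower are among these genes, and the share without them was not counted. The CCAAT box was in 75% of the mitosis windows and in 37.1% of those of protein-coding genes passing the rule. Motif matches are descriptions of letters in these windows.

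DNA replication genes were lower by less. Of 46 members 45 passed, 11 were at least 2-fold lower and 0 higher, the median was -0.72, and 26 of 45 ratios lay below those of all other lines, whose medians ran from -0.56 to 0.45. ORC1, an origin recognition subunit, was lowest, at an FPKM of 7.34 in Mock and 2.49 in DAC. MCM7, a subunit of the replicative helicase, and PCNA, the sliding clamp, were at an FPKM of 59.5 in Mock and 31.7 in DAC for MCM7, and at 54.7 in Mock and 35.1 in DAC for PCNA. CCNE1, cyclin E1, was the member above 0, at an FPKM of 5.41 in Mock and 5.59 in DAC, and below it on the TPM scale. Of the 45 genes 41 had a promoter window, and TTTGAA was in 4.88% of these.

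**Figure D4:**
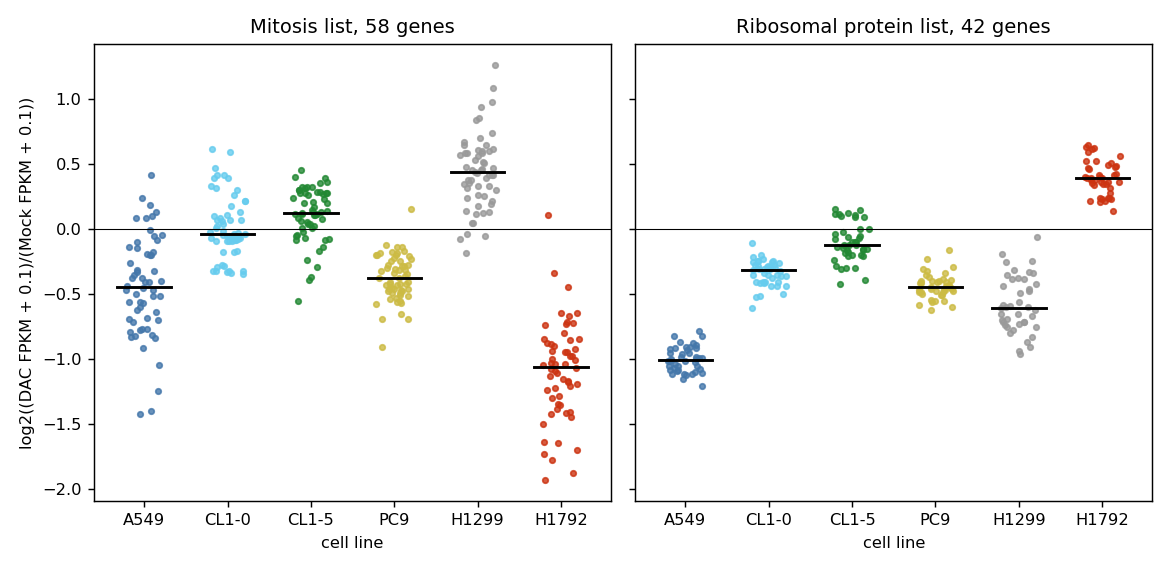
Log2 ratio of DAC to Mock FPKM (y axis) in each of the 6 cell lines (x axis) for the 58 mitosis genes (left) and the 42 ribosomal protein genes (right), 1 point a gene, with the list median as a bar. In H1792 the mitosis median is -1.06, below the -0.44 to 0.44 of the other lines, and the ribosomal median 0.39, above their -1.01 to -0.12.

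Cell cycle inhibitors did not share a direction, with a median of -0.04 (-0.19 after length centring) and 2 of 15 at least 2-fold higher and 2 lower. Among the 14 at 1 FPKM in both columns 1 was at least 2-fold higher and 2 lower. CDKN1A, the p21 inhibitor of cyclin-dependent kinases, was at an FPKM of 8.91 in Mock and 22.9 in DAC (log2 ratio 1.35), beside 0.04 to 1.06 elsewhere. CDKN1C (p57) was higher at a low level, FPKM 0.234 in Mock and 1.16 in DAC (log2 ratio 1.92), where all other lines lay below 0. RB1, the retinoblastoma protein, was at an FPKM of 3.07 in Mock and 1.12 in DAC (log2 ratio -1.38).

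MDM2, a ubiquitin ligase, was at an FPKM of 5.25 in Mock and 4.81 in DAC, and its ratio of -0.12 stood below the 0.07 to 1.52 of the other lines, although it was 0.21 after length centring. GDF15, a stress cytokine, was at an FPKM of 0.927 in Mock and 6.67 in DAC. BAX, a death effector, was at an FPKM of 27.4 in Mock and 32.2 in DAC.

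Histone and tubulin genes had medians of opposite sign. Of 15 histone genes passing, 7 were at least 2-fold higher (5 of the 12 at 1 FPKM in both columns) and 0 lower, with a median of 0.96 (0.66 after length centring) beside 0.58 to 1.55 in the other lines. HIST1H2AC was at an FPKM of 1.43 in Mock and 9.22 in DAC, while the variant histones H2AFX and H2AFZ were at an FPKM of 39.7 in Mock and 26.6 in DAC for H2AFX, and at 122 in Mock and 86.1 in DAC for H2AFZ. Of 14 tubulin genes 3 were at least 2-fold lower, the median was -0.52, and TUBA1B and TUBB were at an FPKM of 119 in Mock and 42.3 in DAC for TUBA1B, and at 316 in Mock and 163 in DAC for TUBB. Copies of both families share sequence. TUBG1, gamma tubulin, stood at an FPKM of 32.6 in Mock and 23.3 in DAC.

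Ribosomal protein genes lay slightly above 0 in H1792. All 42 did so on the FPKM scale, beside 50.8% of all genes, from 0.14 for RPL14 to 0.65 for RPL13, and none reached 2-fold in either direction. The median of 0.39 stood above the -1.01 to -0.12 of the other lines, and each of the 42 ratios lay above those of all 5 lines. It was 0.27 after length centring, where 40 of 42 stayed above 0, 0.23 on the TPM scale, with 41, and 0.15 after quantile normalization, with 38. RPS2 and RPS12, the most abundant members in Mock, were at an FPKM of 931 in Mock and 1132 in DAC for RPS2, and at 1274 in Mock and 1480.2 in DAC for RPS12. Summed FPKM was 14430.1 in Mock and 19019.6 in DAC. The list's median length of 2901 bases was in the fourth decile, although RPL13 and RPL14 are at 6177 and 8633 bases.

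Genes of the respiratory chain lay near 0, with a median of 0.11 (-0.05 on the TPM scale, 0.03 after length centring), 0 of 25 past 2-fold (25 of 37 members were matched in the table), and medians of -0.94 to 0.06 in the other lines. NDUFV1, a complex I subunit, was at an FPKM of 151 in Mock and 159 in DAC. The loading controls GAPDH and ACTB were at an FPKM of 999.7 in Mock and 802 in DAC for GAPDH, and at 1588 in Mock and 1059.5 in DAC for ACTB (log2 ratios -0.32 and -0.58).

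Of 26 lysosome and autophagy genes passing, 22 lay above 0 (20 on the TPM scale and after length centring), beside 50.8% of all genes. Past 2-fold they were near the background, since 3 were at least 2-fold higher (11.5%, beside 8.47%) and 1 lower (3.85%, beside 5.07%), and the median was 0.46 (0.42 after length centring) beside -0.13 to 0.17 elsewhere. The partners NPC2 and NPC1, which hand cholesterol out of the lysosome, differed in opposite directions, at an FPKM of 21.3 in Mock and 45.5 in DAC for NPC2, and at 66.9 in Mock and 30.8 in DAC for NPC1. PSAP, the saposin precursor, stood at an FPKM of 293 in Mock and 511 in DAC, and the cathepsins CTSB and CTSD both had a log2 ratio of 1.06. Cholesterol synthesis genes had a median of -0.34, with 2 of 24 at least 2-fold lower (0 of the 22 at 1 FPKM in both columns). CYP51A1, lanosterol demethylase, was lowest, at an FPKM of 2.14 in Mock and 0.675 in DAC.

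Stress response lists differed from one another. The unfolded protein response had a median of 0.39 (0.26 after length centring, 0.22 on the TPM scale, 0.18 after quantile normalization), with 0 genes past 2-fold. Of its 16 genes 14 lay above 0, beside 50.8% of all genes. That number was 11 on the TPM scale, 10 after quantile normalization and 15 after length centring. Its chaperone HSP90B1 was at an FPKM of 608 in Mock and 809 in DAC. The integrated stress response had a median of 0.17, 0.00 on the TPM scale, with 3 of 22 at least 2-fold higher. ATF5, a transcription factor of that response, stood at an FPKM of 11.5 in Mock and 85.9 in DAC (log2 ratio 2.88), beside 0.59 to 1.28, and ATF4 was at an FPKM of 183 in Mock and 241 in DAC. Heat shock genes had a median of 0.05 (-0.11 on the TPM scale, 0.10 after length centring), and the mitochondrial chaperone HSPD1 was at an FPKM of 279 in Mock and 145 in DAC.

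Actin regulators of blood cells were mostly at low levels. The list holds genes that the study named for the other lines, so it was not chosen apart from this series. Of 23 members 12 passed, 6 were at least 2-fold higher and 1 lower, and 5 of the 6 passed through the DAC column only and so had to differ. Of the 6 at 1 FPKM in both columns 1 was at least 2-fold higher, beside 4.09% of all such genes, with a median of 0.72. The median of the 12, 1.46, lay inside the 0.19 to 1.53 of the other lines. HCLS1, a cortactin-like protein, was at an FPKM of 0.182 in Mock and 4.07 in DAC. FES, a tyrosine kinase, had 3 and 111 reads, a ratio of 38.2-fold (95% counting interval 12.8 to 188). CORO1A, coronin 1A, stayed under 1 FPKM, at an FPKM of 0.348 in Mock and 0.436 in DAC (log2 ratio 0.26), below the 0.79 to 2.73 of the other lines. Members were not uniform, since RAC2 was at an FPKM of 11.1 in Mock and 19.4 in DAC and IQGAP2 at an FPKM of 1.51 in Mock and 0.443 in DAC. The defining leukocyte markers summed to 1.12 FPKM in Mock and 1.96 in DAC.

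The general actin cytoskeleton list did not follow, with a median of -0.09 (-0.03 after length centring) and 2 of 43 at least 2-fold higher and 1 lower. Among the 41 at 1 FPKM in both columns 1 was at least 2-fold higher and 1 lower. ARPC1B, a subunit of the ARP2/3 complex, was highest, at an FPKM of 24.3 in Mock and 58.9 in DAC. TMSB10, a thymosin that binds actin monomers, stood at an FPKM of 2758 in Mock and 4564 in DAC, while every other line lay below 0 (-1.04 to -0.07). DIAPH3, a formin used in cell division, was lowest, at an FPKM of 3.25 in Mock and 1.2 in DAC. The dynactin subunit DCTN1, which is not on this list and which the paper counts under microtubule organization, was at an FPKM of 15.3 in Mock and 13.4 in DAC.

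Intermediate filament genes were led by hair keratins. KRT81 was at an FPKM of 1.55 in Mock and 52.3 in DAC (log2 ratio 4.99), where PC9 lay at 5.10 and the other 4 lines at -0.61 to 1.02. Reads of KRT81 may be shared with other hair keratins. VIM, vimentin, stood at an FPKM of 343 in Mock and 463 in DAC. LMNB1, lamin B1, was at an FPKM of 26.9 in Mock and 13.1 in DAC. The list median was 0.22, with 3 of 16 at least 2-fold higher (2 of the 15 at 1 FPKM in both columns) and 1 lower. GFAP and DES stayed under 1 FPKM in both libraries (FPKM 0.0132 in Mock and 0.37 in DAC, and 0 in Mock and 0.0169 in DAC).

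Mesenchymal genes included several collagens. Of 34 passing, 8 were at least 2-fold higher (5 of the 31 at 1 FPKM in both columns) and 0 lower, and the median was 0.19. COL1A2 was at an FPKM of 0.0867 in Mock and 6.12 in DAC (log2 ratio 5.06, other lines 0.09 to 2.71), and COL5A2 and COL6A3, picked after their values were seen, at an FPKM of 0.653 in Mock and 11.3 in DAC for COL5A2, and at 0.754 in Mock and 11 in DAC for COL6A3. CDH2, N-cadherin, was lowest, at an FPKM of 165 in Mock and 96.2 in DAC. Of the 9 fibroblast markers, 4 were at least 2-fold higher (3 of the 6 at 1 FPKM in both columns). Some of them are on this list, and their part in the result was not tested. THY1 and FAP stayed under 1 FPKM.

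Epithelial junction genes had a median of 0.42, the lower part of the 0.24 to 1.58 elsewhere, with 3 of 12 at least 2-fold higher and 1 lower. All 4 passed through 1 column only and so had to differ, and of the 8 at 1 FPKM in both columns 0 were past 2-fold. ELF3, an epithelial transcription factor, was at an FPKM of 0.818 in Mock and 5.55 in DAC and CLDN3, a claudin, at an FPKM of 1.71 in Mock and 0.752 in DAC. CLDN4 and CLDN1 were at an FPKM of 35.1 in Mock and 46.1 in DAC for CLDN4, and at 25 in Mock and 34.3 in DAC for CLDN1.

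Of 10 genes of S100 calcium-binding proteins passing, 5 were at least 2-fold higher, beside 8.47% of all genes, and 0 lower. Of the 8 at 1 FPKM in both columns 3 were higher, beside 4.09%. The median was 0.99 (0.74 after length centring), beside -0.47 to 0.79. S100P was at an FPKM of 0.535 in Mock and 19.3 in DAC (log2 ratio 4.93) and S100A6, the most abundant, at an FPKM of 982 in Mock and 1687 in DAC. S100A4, which promotes motility and was picked after its values were seen, stood at an FPKM of 8.46 in Mock and 158 in DAC.

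Matrix proteases and their inhibitors had a median of 0.70, with 5 of 15 at least 2-fold higher (3 of the 13 at 1 FPKM in both columns) and 1 lower. MMP1, a collagenase, was at an FPKM of 0.0818 in Mock and 3.62 in DAC, TIMP1, an inhibitor, at an FPKM of 208 in Mock and 384 in DAC, MMP2 at an FPKM of 182 in Mock and 191 in DAC and ADAMTS1 at an FPKM of 27 in Mock and 13 in DAC. Integrins and matrix receptors had a median of 0.03, which changed to -0.13 on the TPM scale and to 0.31 after length centring, with 6 of 27 at least 2-fold higher (2 of the 23 at 1 FPKM in both columns) and 2 lower. COL4A1, a basement membrane collagen, had 0 reads in Mock and 228 in DAC, at least 78.6-fold higher. LAMA3, a laminin chain, was lowest, at an FPKM of 18.4 in Mock and 7.88 in DAC.

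Growth factor receptors and ligands had a median of -0.15, which became 0.15 after length centring. HGF, the ligand of MET, had 0 reads in Mock and 288 in DAC, at least 99.2-fold higher, at an FPKM of 1.35. MET itself was at an FPKM of 55.7 in Mock and 33 in DAC and AXL, another receptor tyrosine kinase, at an FPKM of 107 in Mock and 63.2 in DAC. MYC, the growth-promoting transcription factor, stood at an FPKM of 313 in Mock and 175 in DAC, and the phosphatase DUSP5, a brake on ERK, at an FPKM of 22.4 in Mock and 79.8 in DAC.

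**Figure D5:**
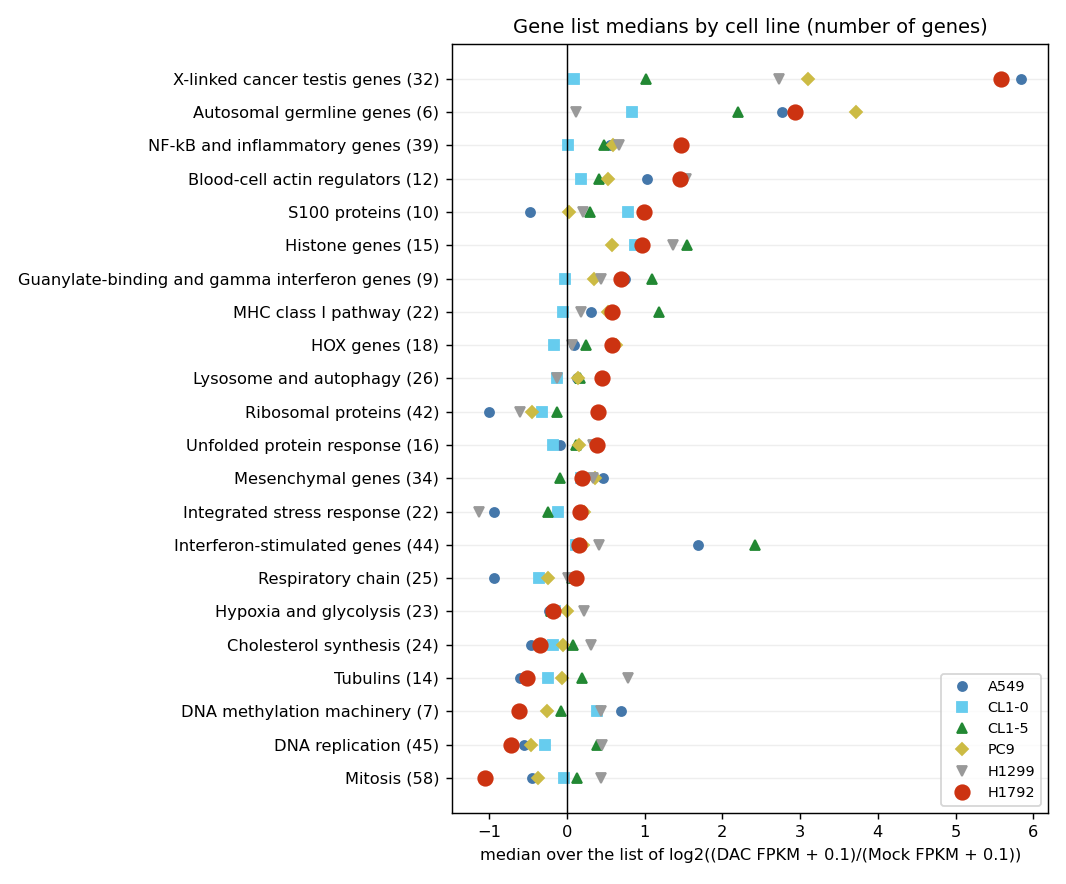
Median log2 ratio of DAC to Mock FPKM (x axis) over the members of 22 gene lists (y axis, number of genes passing the H1792 rule in brackets), 1 point a cell line. The H1792 points (large) lie above those of all other lines for the NF-kB, ribosomal protein, lysosome and S100 lists, among others, and below them for the mitosis, DNA replication and DNA methylation lists. All points are on the FPKM scale without length centring, and the order of the lines on another scale or after centring was not computed.

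Genes at least 2-fold higher in H1792 were partly shared with other lines. Of the 1129, 230 (20.4%) were also at least 2-fold higher in PC9, where they made up 27.2% of that line's own higher genes, while 3.65% of all 13323 genes were higher there. CL1-5 shared 170 (15.1% of the H1792 genes and 26.5% of its own, with 2.96% of all genes higher there). A549 shared 212 (18.8% and 14.6%, beside 6.67%), H1299 145 (12.8% and 14.6%, beside 4.11%) and CL1-0 79 (7.0% and 17.1%, beside 1.88%). For 644 (57.0%) no other line was at least 2-fold higher, and 15 genes were so in all 5. Of the 675 lower genes, 581 (86.1%) were at least 2-fold lower in no other line and 13 in 2 others. The matching shares over all 13323 genes were not counted. Of all genes, only 1.88% to 6.67% were higher and 0.48% to 5.89% lower in any single other line. A high share without overlap is therefore not a trait of the higher or the lower H1792 genes. With CL1-5 the shared lower genes numbered 49, 7.26% of the H1792 genes and 12.2% of that line's, while 1.82% of all genes were lower there. With A549 they numbered 28 (4.15%, beside 5.89% of all genes), with PC9 15 (2.22%, beside 0.908%), with H1299 9 (1.33%, beside 2.85%) and with CL1-0 6 (0.889%, beside 0.48%). Of the 675 lower H1792 genes, 132 were at least 2-fold higher in A549, 48 in CL1-0, 41 in PC9, 26 in H1299 and 5 in CL1-5. Over all 13323 genes the shares higher in these lines were 6.67%, 1.88%, 3.65%, 4.11% and 2.96%, in the same order. The 26 in H1299 were near that line's share, and no count was tested against it.

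Across genes, H1792 ratios correlated with those of PC9 at a Pearson r of 0.33 and of CL1-5 at 0.30, with A549 at 0.18, H1299 at 0.19 and CL1-0 at 0.06. These values are over the 13323 genes, which are not independent replicates. The rank correlation was 0.22 with PC9, 0.23 with CL1-5, -0.15 with A549, -0.02 with H1299 and -0.16 with CL1-0. The points share gene lengths, and the part of length in these values was not tested. In the other lines 3.63% (CL1-0) to 10.8% (A549) of the genes passing the same rule were at least 2-fold higher and 1.19% (CL1-0) to 7.61% (A549) lower, so the 8.47% and 5.07% of H1792 fell inside that range in both directions.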

How the data were processed

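mRNA-seq libraries came from 12 cultures, 1 Mock and 1 DAC for each of 6 lines. Per the labels and methods, the authors trimmed reads, aligned them to hg19, counted them per gene on a GENCODE GRCh37 annotation and deposited FPKM from DESeq2 (1.24.0), with a size-factor normalized signal beside it. The submitters' processing notes also list TopHat2 (2.1.1). Deposited columns with the authors' own comparison (log2 fold change, its error, test statistic and p-values) were not used, and neither were the Omni-ATAC files, which hold no H1792 library. Dividing the deposited signal by its step gave whole reads for 100% of values (tolerance 0.01). Of 36076 gene IDs, 35393 matched GENCODE v44lift37 and 13891 had no symbol.

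Samples were grouped by title. The H1792 ratio used a pseudocount of 0.1 and genes at 1 FPKM in either column. Ratios of the 6 lines were compared with limma (3.58.1, R 4.3.3), H1792 against the other 5, with a trend on mean expression and Benjamini-Hochberg adjustment over 18098 genes with 1 FPKM in any library. Its p-values measure the spread between lines. The procedure was also run on simulated data in which the H1792 ratio varied like the others, so that run cannot check this assumption. Members and gene lists were chosen with earlier results of these data known. Named are the 10 highest and 10 lowest protein-coding genes, the genes called by limma (none), in each list the highest, the lowest and the 2 most abundant in Mock, a fixed set of immune, growth and cytoskeletal genes, and markers at 0. A few genes that this rule names are not reported here. Every other list member named was chosen after its values were seen. Alternatives were other pseudocounts, filters and scalings, voom, and leaving out each line. Counting intervals are exact binomial at 95%, and the floor for 0 reads is 3. Promoter windows came from RefSeq (GRCh38.p14) and were matched by gene ID and symbol.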

Additional observations from a re-analysis of the deposited data

Results flagged for a closer look

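Each H1792 ratio was set among the 6 line ratios of the same gene or gene list, for 46 list medians and 212 named genes. A value was picked out where it stood apart from the other 5 by more than Dixon's 95% critical value for 6 samples, a limit that chance takes any 1 of 6 values past in about 1 in 20 groups, and the H1792 value alone less often, or where H1792 lay on one side of 0 and all 5 other lines on the other. The second kind of difference was not tested. No list median stood apart by Dixon's value, and 10 named genes did. All 10 had been named for the highest or lowest H1792 ratio of all genes or of a list, so the choice favoured such values and their count is a description, not a test.

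Genes far from the other lines were led by CSF3 at 9.33 (others 0.00 to 2.84). HGF at 3.86 (others -0.08 to 1.08) and ATF5 at 2.88 (others 0.59 to 1.28) were also above. Below lay MYB at -2.07, SERPINB4 at -2.05, IQGAP3 at -2.05, HLA-DRA at -1.47 and CYP51A1 at -1.53. PLXNA4 at -2.24 and CDKN1C at 1.92 both stood far from the other lines and on the other side of 0. H1792 reads behind the lower levels were few, 72 in DAC for CDKN1C and 26 for MYB. The rule asks for expression in H1792 only, and a gene that another line does not express cannot vary there. Ratios were exactly 0 for HLA-DRA in CL1-0, CL1-5 and PC9 and for SERPINB4 in CL1-0 and H1299. They were also 0 for CSF3 in CL1-0 and for HGF in PC9. For such genes the distance from the other lines is partly set by the choice of genes.

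The median of the ribosomal protein list was 0.39 in H1792 and -1.01 to -0.12 in the other lines, and the same opposite signs were met by its named members RPL13 (0.65), RPL14 (0.14), RPS12 (0.22) and RPS2 (0.28). Above 0 in H1792 alone were also TMSB10 (0.73), WARS (0.21), DCTD (0.19), GNAS (0.13) and NDUFV1 (0.0719). Below 0 in H1792 alone were NPC1 (-1.11), MDM2 (-0.12), PDGFRA (-0.0848) and CANX (-0.0195). The H1792 signs of 7 of these genes turned under another scaling. Signs of the other lines were not rescaled, and some ratios there lay close to 0, such as -0.07 for TMSB10 in PC9 and -0.06 for CDKN1C in CL1-0. On the TPM scale RPL14 was at -0.02, GNAS at -0.03 and NDUFV1 at -0.09, and quantile normalization gave GNAS -0.04 and NDUFV1 -0.21. After length centring RPS12 was at -0.16, MDM2 at 0.21, PDGFRA at 0.12 and CANX at 0.05. Several of these ratios are within the 0.17 by which TPM scaling shifted the median of all genes. Over all 13323 genes, 532 (3.99%) lay above 0 in H1792 and below 0 in the other 5 lines, and 332 (2.49%) the other way round.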

How the results depend on the processing

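With 1 library a treatment, read depth and the single pair of cultures limit every H1792 value, and a gene at a few reads is known only to within its counting interval. The 1129 genes at least 2-fold higher became 713 with a pseudocount of 1, 478 when 1 FPKM was asked in both columns, 3328 with a limit of 0.1 FPKM, 470 with a limit of 5 FPKM, and 450 at a 4-fold limit. The 675 lower genes became 315, 383, 1970, 255 and 116 under the same settings, and 1095 on the TPM scale. In the limma comparison with the other lines, the 0 genes higher and 0 lower became 38 and 7 with a pseudocount of 1, 112 and 68 without an expression filter, and 12 and 5 without a variance trend. Leaving out 1 other line gave 0 to 8 genes higher and 0 to 5 lower, with 8 and 5 without H1299, 2 and 0 without A549 and 1 and 0 without PC9. TPM, quantile normalization, a pseudocount of 0.01, robust estimation and voom left both at 0. With the pseudocount of 1, IL1B, CSF2, CSF3, IDO1, LCN2 and VCAM1 were among the higher genes, so these calls turn on the weight given to low values. The median of the X-linked cancer testis list, 5.58, became 3.24 with a pseudocount of 1 and 2.54 over genes at 1 FPKM in both columns, which leaves 6 genes. No list median or named gene that was past 2-fold changed sign under any alternative. Of 49 list medians 8, all within 2-fold, changed sign on the TPM scale, 4 with quantile normalization and 3 after length centring. Every ratio pairs the 2 libraries of a line, and the voom fit held the line as a block.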

Other observations

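Developmental and imprinted genes were examined for groups not covered by the comparisons above. Of 39 HOX genes, the homeobox genes that give positional identity, 18 passed the expression rule in H1792. Of these 5 were at least 2-fold higher (3 of the 15 at 1 FPKM in both columns) and 0 lower. The median was 0.58 (0.36 after length centring), within the -0.16 to 0.63 of the other lines. HOXB2 was at an FPKM of 0.311 in Mock and 2.8 in DAC, HOXB9, the most abundant, at an FPKM of 26.9 in Mock and 36.2 in DAC, and HOXA13 at an FPKM of 1.62 in Mock and 0.991 in DAC. Of 15 imprinted genes passing, 3 were at least 2-fold higher (1 of the 12 at 1 FPKM in both columns) and 1 lower, with a median of 0.26 (0.47 after length centring). NDN, necdin, was at an FPKM of 1.09 in Mock and 5.09 in DAC and DIRAS3, a growth-restraining GTPase, at an FPKM of 3.86 in Mock and 1.77 in DAC, while GNAS stood at an FPKM of 83.6 in Mock and 91.8 in DAC. Of 27 lung lineage genes 5 passed, among them FOXA1 (FPKM 7.61 in Mock and 7.96 in DAC) and GATA6 (FPKM 16.7 in Mock and 12.1 in DAC), endoderm transcription factors that differed by less than 2-fold. Neuronal and neuroendocrine genes had a median of 0.11 (-0.05 on the TPM scale, -0.03 after length centring), with 3 of 11 at least 2-fold higher. UCHL1, a deubiquitinase of neurons, was at an FPKM of 277 in Mock and 300.5 in DAC.

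Tumour suppressors known for promoter methylation in lung cancer had a median of 0.45 over 18 genes, beside -0.09 to 0.42 in the other lines. It was 0.29 on the TPM scale and 0.38 after length centring. Of the 18, 4 were at least 2-fold higher (2 of the 15 at 1 FPKM in both columns) and 0 lower. TFPI2, a protease inhibitor, was at an FPKM of 82.7 in Mock and 282 in DAC and CYGB, cytoglobin, at an FPKM of 0.219 in Mock and 1.22 in DAC. APC, the Wnt pathway suppressor, was lowest at an FPKM of 3.64 in Mock and 2.04 in DAC, and GSTP1, a detoxifying enzyme, was at an FPKM of 715 in Mock and 781 in DAC. All 4 secreted Wnt antagonists that passed lay above 0 (3 after length centring), beside 50.8% of all genes, without reaching 2-fold (median 0.76). DKK3 was at an FPKM of 8.85 in Mock and 17.3 in DAC. Metallothioneins had a median of 0.64 (0.27 after length centring) with 3 of 7 at least 2-fold higher (2 of the 4 at 1 FPKM in both columns). MT2A, the most abundant, was at an FPKM of 308 in Mock and 318 in DAC. Targets of NRF2, the oxidative stress factor, had a median of -0.21 (-0.13 after length centring), with ABCC2 at an FPKM of 5.01 in Mock and 2.23 in DAC, and hypoxia and glycolysis genes one of -0.18, with HK2, hexokinase 2, at an FPKM of 31.8 in Mock and 18 in DAC. MAPK feedback genes had a median of -0.03 (-0.07 after length centring), with 1 of 25 at least 2-fold higher and 1 lower. Complement genes had a median of 0.46, and CD55, which shields cells from complement, was at an FPKM of 58.3 in Mock and 102 in DAC.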
